A study of Mus musculus with 4 samples.

Results

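The genes of oxidative phosphorylation were followed in sorted mouse thymocytes, as a nuclear set and a mitochondrially encoded set kept apart. The nuclear set held 107 genes whose symbols start with Nduf (complex I), Sdha to Sdhd (complex II), Uqc (complex III), Cox4, Cox5, Cox6, Cox7 or Cox8 (complex IV) or Atp5 (complex V), and the mitochondrial set held the 13 protein-coding genes whose symbols start with mt-. Together these are 120 of the 33696 genes listed. The symbol rule also took in 18 assembly factors (Ndufaf, Sdhaf and Uqcc genes) and 1 pseudogene, Cox5b-ps, and it misses members with other names, such as Cyc1. Of the nuclear genes, 101 had at least 100 UMIs (unique molecular identifiers, each standing for 1 captured RNA molecule) over both libraries. Another 3 (Cox6a2, Cox7b2 and Cox8b) had 1 to 99 UMIs, and 3 (Cox8c, Ndufa4l2 and Ndufb11b) had none. All 13 mitochondrial genes passed 100 UMIs.

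The study set thymocytes of Cd4Cre Cgas fl/fl mice (Cgas KO), in which Cre recombinase driven by Cd4 regulatory sequence is expressed in thymocytes and can delete the floxed Cgas gene, against thymocytes of Cd4Cre mice (WT), which carry the same Cre. Cgas encodes a sensor of double-stranded DNA in the cytosol. Cells were sorted from thymus as CD4+CCR7+ per the labels, and each genotype gave 1 droplet library of RNA 3' ends. The labels do not give the age or sex of the mice, or how many mice entered each library. Because each genotype has 1 library, the genotypes could not be compared by a test, the libraries and the genotypes cannot be told apart, and every interval below is an exact 95% interval that covers counting error only.

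Oxidative phosphorylation takes electrons from NADH and succinate through complexes I to IV of the inner mitochondrial membrane to oxygen, and complex V (ATP synthase) uses the resulting proton gradient to make ATP. Complexes I, III, IV and V combine nuclear subunits, imported from the cytosol, with subunits made inside the organelle from mitochondrial DNA, whereas complex II is wholly nuclear. Activation and proliferation of T cells are known to go with mitochondrial growth, while resting T cells draw much of their ATP from oxidative phosphorylation.

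Barcodes with at least 2000 UMIs, at least 500 genes and at most 10% mitochondrial UMIs were kept, 14381 in the Cgas KO library and 12929 in the WT library, with medians of 4507 UMIs in Cgas KO and 4943 UMIs in WT. They held 75605391 UMIs in the Cgas KO library and 75001049 in the WT library. Each was assigned to 1 of 6 states by marker UMIs: Rag1+ (an earlier stage, 381 Cgas KO and 459 WT barcodes), Itm2a+ S1pr1- (semi-mature, 5909 Cgas KO and 5099 WT), S1pr1+ (mature, 4158 Cgas KO and 3652 WT), Foxp3+ (regulatory T cell lineage, 339 Cgas KO and 466 WT), Cd8 lineage (1220 Cgas KO and 1281 WT) and cycling (1290 Cgas KO and 1063 WT). The other 1084 Cgas KO and 909 WT barcodes had no state. Markers that the rule did not use, 4 for the Cd8 lineage and 5 for each other state, all stood higher in their state than over all kept barcodes, in both libraries. Those of the cycling, Rag1+, Foxp3+ and Cd8 lineage states were all highest in their own state. Of the 5 Itm2a+ S1pr1- markers only 3 in Cgas KO and 2 in WT were, and of the 5 S1pr1+ markers only 2 in Cgas KO and 3 in WT. In Cgas KO, Il7r of the S1pr1+ markers was higher in Itm2a+ S1pr1- barcodes. Over all kept barcodes, B cell, dendritic cell, macrophage and thymic epithelial lists each summed to at most 6.95 CPM (counts per 1e6 UMIs of all genes). Stromal genes summed to 125 CPM in Cgas KO and 118 CPM in WT. Red cell genes summed to 60.4 CPM in Cgas KO, almost all from 2 barcodes, and 2.75 CPM in WT. The stromal sum was nearly all Pecam1, at 124.8 CPM in Cgas KO and 117.8 CPM in WT, while Col1a1 and Pdgfrb had at most 0.347 CPM each. Single states had higher sums. Macrophage genes had 17.6 CPM in Rag1+ barcodes of WT and 1.33 CPM in Cgas KO. Dendritic cell genes had 16.4 CPM in Cd8 lineage barcodes of WT and 3.87 CPM in Cgas KO. Thymic epithelial genes had 14.5 CPM in Foxp3+ barcodes of Cgas KO and 10.9 CPM in WT. Red cell genes had 205 CPM in S1pr1+ barcodes of Cgas KO and 2.35 CPM in WT. The libraries shared 276 barcode sequences. Doublets were not removed; 9.58% of Cgas KO and 9.003% of WT barcodes carried at least 2 productive TCR beta chains. Cgas itself had 2.92 CPM in Cgas KO and 4.49 CPM in WT, but a 3' tag outside a floxed segment does not check its deletion.

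Promoter windows of the nuclear genes are shown first, since several of them share short motifs. RefSeq windows on GRCm38.p6 matched 85 of the nuclear genes. They ran over 250 bases before to 50 bases after an annotated start, which for some genes, such as Ndufa3, is not the first base of the gene. They were searched on both strands for 3 motifs: GCGCATGC, bound by NRF1 (a regulator of respiratory chain genes); CCGGAAGT, bound by ETS factors such as GABP; and AAGATGGC, bound by YY1. GCGCATGC occurred in 12 of 85 windows (14.1%), against 3.05% of all 27025 windows in the table. AAGATGGC occurred in 12 (14.1%), against 3.19%, and CCGGAAGT in 5 (5.88%), against 4.31%. At least 1 of the 3 was present in 28 windows (32.9%), against 9.91% of all windows. Of the genes at least 1.2-fold higher in cycling barcodes (described below), 34 had a window and 41.2% of these held a motif, against 27.5% of the other 51. These matches describe letters, not binding, and the shares were not tested. The letters of GCGCATGC overlap their own reverse complement, so that GCGCATGCGC holds a match on each strand. Only windows that held a motif were considered for showing. Cox7a2l, Sdhc, Ndufb1 and Atp5g1, which are also named in the results, had no window with a motif. The windows shown are those of Cox8a, with the largest ratio in cycling barcodes (chr19:7217567-7217866, minus strand), Atp5k (chr5:108434350-108434649, minus strand) and Ndufa3 (chr7:3617123-3617422, plus strand), both higher in Cgas KO, and Ndufaf4, low in S1pr1+, Foxp3+ and Rag1+ barcodes (chr4:24897833-24898132, plus strand). Each reads 5′ to 3′ on the strand of its gene, with motif matches on either strand in capitals.
Cox8a: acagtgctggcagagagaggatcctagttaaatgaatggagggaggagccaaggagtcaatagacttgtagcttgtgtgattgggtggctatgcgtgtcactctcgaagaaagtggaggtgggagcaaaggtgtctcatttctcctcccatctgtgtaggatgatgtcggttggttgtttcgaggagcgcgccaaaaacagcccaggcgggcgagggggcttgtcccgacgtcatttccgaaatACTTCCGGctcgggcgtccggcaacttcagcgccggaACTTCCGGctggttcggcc
Atp5k: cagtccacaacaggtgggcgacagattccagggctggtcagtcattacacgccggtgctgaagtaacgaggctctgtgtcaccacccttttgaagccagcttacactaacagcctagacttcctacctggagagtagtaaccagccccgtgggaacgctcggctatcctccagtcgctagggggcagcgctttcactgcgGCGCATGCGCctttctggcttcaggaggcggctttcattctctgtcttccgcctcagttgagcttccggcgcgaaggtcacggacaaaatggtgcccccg
Ndufa3: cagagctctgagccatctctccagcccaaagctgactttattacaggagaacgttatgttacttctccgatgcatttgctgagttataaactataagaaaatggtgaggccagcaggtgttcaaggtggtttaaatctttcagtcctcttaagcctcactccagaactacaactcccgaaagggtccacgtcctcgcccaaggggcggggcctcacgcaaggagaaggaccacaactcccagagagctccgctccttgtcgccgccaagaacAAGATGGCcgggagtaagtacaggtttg
Ndufaf4: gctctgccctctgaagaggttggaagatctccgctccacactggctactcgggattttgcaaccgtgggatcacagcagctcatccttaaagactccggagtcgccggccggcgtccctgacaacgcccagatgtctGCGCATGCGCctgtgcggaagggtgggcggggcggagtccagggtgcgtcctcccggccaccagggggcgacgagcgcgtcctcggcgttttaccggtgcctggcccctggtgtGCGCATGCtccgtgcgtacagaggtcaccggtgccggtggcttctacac
Cox8a holds the ETS motif at 2 places as its reverse complement, Atp5k and Ndufaf4 hold the NRF1 motif, and Ndufa3 holds the YY1 motif.

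The nuclear and mitochondrial sets followed different orders across the states. As a share of all UMIs, the nuclear set was largest in cycling barcodes, at 2.42% in Cgas KO and 2.31% in WT. Cd8 lineage barcodes had 2.19% in both libraries, Itm2a+ S1pr1- barcodes 2.02% in Cgas KO and 1.99% in WT, and Rag1+ barcodes 1.99% in Cgas KO and 1.87% in WT. Foxp3+ barcodes had 1.93% in Cgas KO and 1.91% in WT, and S1pr1+ barcodes had the smallest share, 1.83% in Cgas KO and 1.77% in WT. The mitochondrial set ran nearly the other way: cycling barcodes were lowest, at 0.962% in Cgas KO and 0.973% in WT, followed by Cd8 lineage barcodes at 0.977% in Cgas KO and 0.989% in WT and Itm2a+ S1pr1- barcodes at 0.996% in Cgas KO and 1.01% in WT. It stood at 1.03% in Cgas KO and 1.05% in WT in Foxp3+ barcodes, at 1.06% in both libraries in S1pr1+ barcodes and at 1.09% in both libraries in Rag1+ barcodes. Both orders depended on scaling by all UMIs. With TMM factors, another scaling, Rag1+ instead of S1pr1+ barcodes were lowest in the nuclear set in both libraries. In the mitochondrial set Rag1+ barcodes then fell below Itm2a+ S1pr1- barcodes, and cycling barcodes were no longer lowest. All states come from the same 2 libraries, so a second library that repeats an order shares its sort and its processing. Barcodes with 20 to 199 UMIs, which hold mostly free RNA, had a nuclear share of 1.59% in Cgas KO and 1.73% in WT and a mitochondrial share of 0.836% in Cgas KO and 0.821% in WT.

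**Figure D1:**
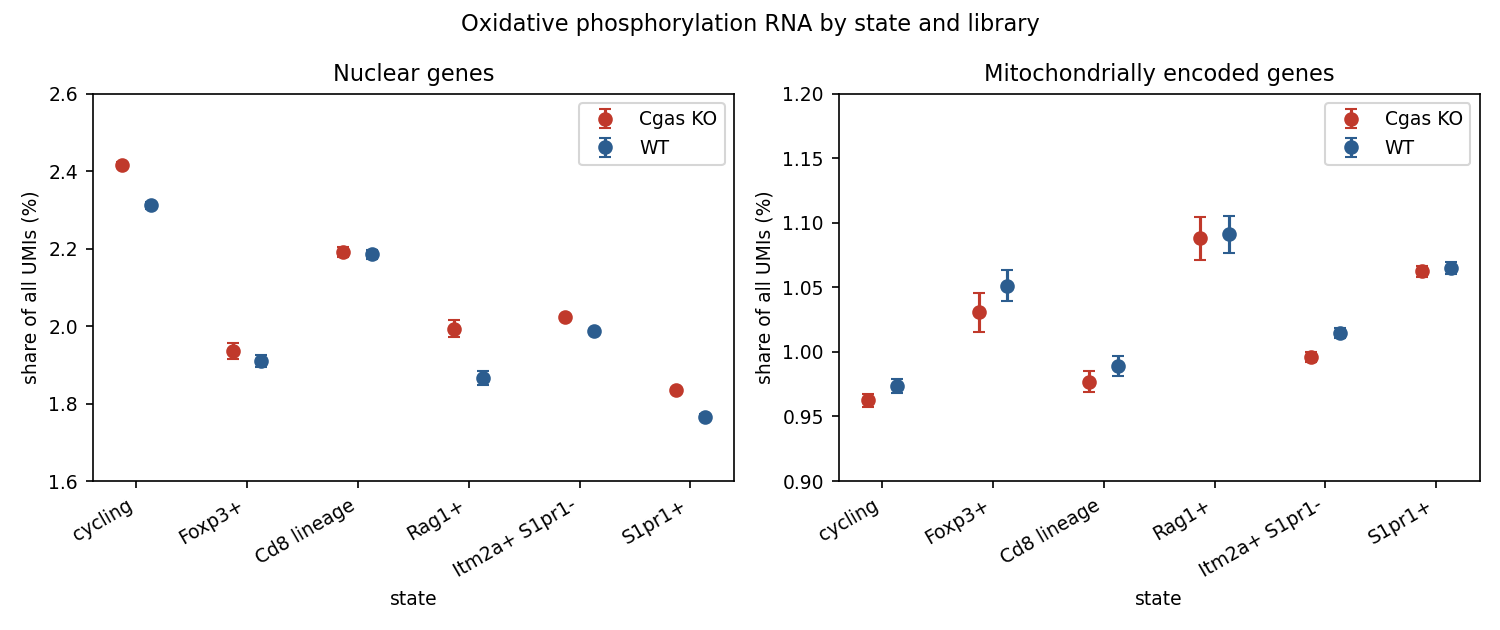
Share of all UMIs in percent taken by the 107 nuclear and the 13 mitochondrial genes in each state, 1 point per library (Cgas KO and WT), with exact 95% intervals that cover counting error. The nuclear share of all UMIs is highest in cycling and lowest in S1pr1+ barcodes, while the mitochondrial share is lowest in cycling barcodes. Both lowest places changed with TMM factors.

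Set against each other, cycling barcodes held 2.51 nuclear UMIs per mitochondrial UMI of the sets in Cgas KO and 2.37 in WT, and S1pr1+ barcodes held 1.73 in Cgas KO and 1.66 in WT. Cd8 lineage barcodes had 2.24 in Cgas KO and 2.21 in WT, Itm2a+ S1pr1- barcodes 2.03 in Cgas KO and 1.96 in WT, Foxp3+ barcodes 1.88 in Cgas KO and 1.82 in WT, and Rag1+ barcodes 1.83 in Cgas KO and 1.71 in WT. The order of the 6 states by this ratio was the same in both libraries. Over all kept barcodes it was 2.01 in Cgas KO and 1.94 in WT.

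The maturation order from Rag1+ over Itm2a+ S1pr1- to S1pr1+ was described next, together with the Foxp3+, Cd8 lineage and cycling states, each set against Itm2a+ S1pr1- barcodes of its own library. A gene was counted as higher or lower in a state where it passed a fold of 1.2 in both libraries, among genes with at least 100 UMIs over both states in each library.

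Cycling barcodes were marked by higher nuclear genes of complexes I, IV and V. The nuclear set stood at 1.19 times its Itm2a+ S1pr1- level in Cgas KO and 1.16 times in WT, while the mitochondrial set stood at 0.966 times in Cgas KO and 0.959 times in WT. Of 98 nuclear genes measured, 36 were higher and 3 lower, against 19.3% higher and 24.9% lower of all 10834 genes measured. The median ratio of the nuclear genes was 1.16 in Cgas KO and 1.151 in WT, against 0.938 in Cgas KO and 0.945 in WT over all genes. None of the 13 mitochondrial genes passed the fold in either direction. Median depth was 9426 UMIs per cycling barcode in Cgas KO and 10310 in WT, against 4522 in Cgas KO and 5047 in WT per Itm2a+ S1pr1- barcode. After every barcode was thinned to 2000 UMIs, states were assigned again, which left 817 Cgas KO and 612 WT cycling barcodes. There 33 of 96 genes were higher, 29 of them among the 36, against 19.1% of all genes. With barcodes allowed to count in several states 20 of 100 were higher, which is near the 16.5% of all genes. With mitochondrial and ribosomal protein genes left out of the total 26 of 98 were higher, against 17.5% of all genes. All of these 20 and 26 were among the 36.

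Complex IV, cytochrome c oxidase, held the largest change in sum: its nuclear subunits stood at 1.30 times the Itm2a+ S1pr1- level in Cgas KO and 1.25 times in WT, with 8 of 13 measured genes higher. Cox8a, the ubiquitous isoform of subunit 8, had 945 CPM in cycling barcodes against 499 CPM in Itm2a+ S1pr1- barcodes in Cgas KO, and 879 against 492 CPM in WT, ratios of 1.89 in Cgas KO and 1.79 in WT. Both cycling values thus lay above both Itm2a+ S1pr1- values. Cox7a2, the widely expressed subunit 7a isoform, had 399 against 255 CPM in Cgas KO and 377 against 255 CPM in WT. Cox5a, a nuclear subunit at the matrix side, stood at 1.52 times in Cgas KO and 1.47 times in WT, and Cox5b at 1.44 times in Cgas KO and 1.34 times in WT. Ndufa4, named for complex I but a subunit of complex IV, stood at 1.502 times in Cgas KO and 1.45 times in WT. Cox6b2, known as a testis isoform, was higher as well, at 6.73 against 3.67 CPM in Cgas KO and 6.84 against 4.31 CPM in WT, from only 88 UMIs in Cgas KO and 82 in WT in cycling barcodes.

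Cox7a2l (SCAF1), which links complexes III and IV into supercomplexes, ran against its own family. It was lower in cycling barcodes, at 228 against 311 CPM in Cgas KO and 270 against 346 CPM in WT, ratios of 0.733 in Cgas KO and 0.779 in WT. Across all 6 states its order was the same in both libraries: 434 CPM in Cgas KO and 487 CPM in WT in Foxp3+ barcodes, 389 in Cgas KO and 432 in WT in S1pr1+, 358 in Cgas KO and 401 in WT in Rag1+, 311 in Cgas KO and 346 in WT in Itm2a+ S1pr1-, 268 in Cgas KO and 297 in WT in Cd8 lineage and 228 in Cgas KO and 270 in WT in cycling barcodes. The counting intervals of S1pr1+ and Rag1+ barcodes overlap, and those of the other neighbours do not. This order is by the total of all UMIs. TMM factors divide the ratio of Rag1+ to Itm2a+ S1pr1- barcodes by 1.14 in Cgas KO and 1.15 in WT. With them the Cox7a2l level of Rag1+ barcodes came close to that of Itm2a+ S1pr1- barcodes. Cox7a2 was instead highest in cycling barcodes and between 221 and 270 CPM in the other 5 states of both libraries. Cox4i1, the common isoform of subunit 4, kept between 807 and 922 CPM in all states.

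**Figure D2:**
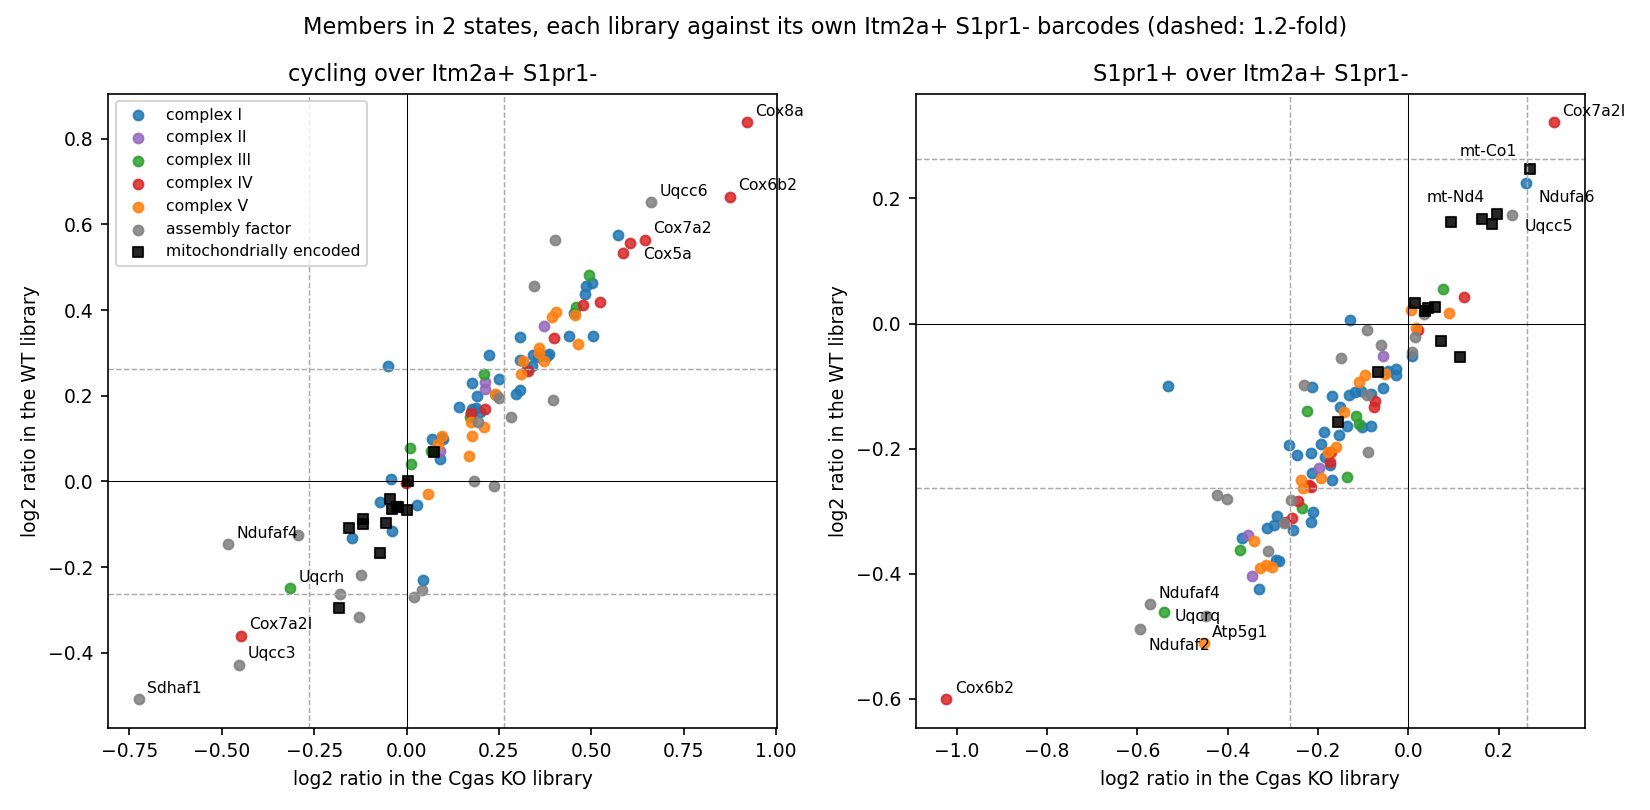
Log2 ratio of each gene in cycling (left) or S1pr1+ barcodes (right) to its level in Itm2a+ S1pr1- barcodes, with the Cgas KO library on the x axis and the WT library on the y axis, coloured by complex; dashed lines mark a fold of 1.2. Most subunits of complexes IV and V lie above 0 in cycling barcodes and most nuclear genes lie below 0 in S1pr1+ barcodes.

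In complex V, 8 of 17 genes were higher in cycling barcodes and none was lower. Among the genes of the c-ring, whose mature proteins are the same, Atp5g3 had 1078 against 832 CPM in Cgas KO and 1011 against 832 CPM in WT. Atp5g2 had 749 against 566 CPM in Cgas KO and 755 against 574 CPM in WT. Atp5g1 stayed under the fold in both, at 259 against 230 CPM in Cgas KO and 253 against 230 CPM in WT. Atp5j, Atp5l and Atp5h, peripheral stalk and membrane subunits, stood between 1.23 and 1.37 times. In complex I, 14 of 38 genes were higher and none was lower, with the accessory subunits Ndufc1 (1.49 times in both libraries), Ndufb7 (1.42 in Cgas KO and 1.38 in WT) and Ndufab1, the mitochondrial acyl carrier protein (1.40 in Cgas KO and 1.37 in WT), among them. Complex II had 1 of 4 higher, the membrane anchor Sdhd (1.29 in both), and complex III 2 of 8, Uqcr10 (1.41 in Cgas KO and 1.40 in WT) and Uqcr11 (1.37 in Cgas KO and 1.33 in WT). Uqcrh, the hinge protein of complex III, was among the lowest subunits, at 521 against 649 CPM in Cgas KO and 513 against 609 CPM in WT, without passing the fold in both libraries.

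In sum the assembly factors did not share this shift, at 0.982 times the Itm2a+ S1pr1- level in Cgas KO and 0.976 times in WT. Of 18, 3 were higher and 2 lower. Factors of complex II stood at 0.790 times in Cgas KO and 0.810 in WT. Those of complex I stood at 1.05 in Cgas KO and 1.03 in WT, and those of complex III at 1.04 in Cgas KO and 1.03 in WT. The median of the 18 was 1.08 in Cgas KO and 0.955 in WT, against 0.938 in Cgas KO and 0.945 in WT over all genes. The complex III factor Uqcc6 was higher, at 1.58 times in Cgas KO and 1.57 times in WT, as were Uqcc2 (1.27 in Cgas KO and 1.37 in WT) and the complex I factor Ndufaf2 (1.32 in Cgas KO and 1.48 in WT). Sdhaf1, which helps insert iron-sulphur clusters into complex II, was lower, at 50.05 against 82.7 CPM in Cgas KO and 57.4 against 81.6 CPM in WT. The complex III factor Uqcc3 was lower at 0.730 times in Cgas KO and 0.744 times in WT. The 3 genes lower in cycling barcodes (Sdhaf1, Uqcc3 and Cox7a2l) passed the fold under each of 8 other settings as well.

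S1pr1+ barcodes showed the opposite for the nuclear genes. The nuclear set stood at 0.907 times its Itm2a+ S1pr1- level in Cgas KO and 0.889 times in WT, and the mitochondrial set at 1.07 times in Cgas KO and 1.05 times in WT. Of 99 nuclear genes measured, 1 was higher and 25 lower, against 9.47% and 17.8% of all genes. The median ratio was 0.880 in Cgas KO and 0.872 in WT, against 0.941 in Cgas KO and 0.942 in WT over all genes. This count depended on scaling. TMM factors moved the median of all genes to 0.997 in Cgas KO and 0.995 in WT. With them 2 nuclear genes were higher and 8 lower of 99, against 13% and 11.1% of all genes, so the lower count fell below the share of all genes. With mitochondrial and ribosomal protein genes left out of the total 2 were higher and 17 lower of 99, against 10.9% and 14.2% of all genes, and the lower count is near that share. The set as a whole stayed below 1 in both libraries under each of these.

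The 25 lower genes, counted on the total of all UMIs, came from every complex. In complex II, the iron-sulphur subunit Sdhb had 118 against 151 CPM in Cgas KO and 119 against 150 CPM in WT, and the heme-binding anchor Sdhc had 46.0 against 58.5 CPM in Cgas KO and 53.5 against 70.7 CPM in WT. The catalytic flavoprotein Sdha had 139 against 144 CPM in Cgas KO and 142 against 148 CPM in WT, and Sdhd had 63.3 against 72.6 CPM in Cgas KO and 62.6 against 73.5 CPM in WT, both under the fold. In complex V, 5 of 17 genes were lower: Atp5g1 had 168 against 230 CPM in Cgas KO and 161 against 230 CPM in WT, Atp5b, the catalytic beta subunit, had 583 against 732 CPM in Cgas KO and 574 against 753 CPM in WT, and Atp5g3, Atp5o and Atp5md stood between 0.763 and 0.811 times. Atp5g2 differed from its c-ring partners, with 568 against 566 CPM in Cgas KO and 583 against 574 CPM in WT. In complex III, Uqcrq had 186 against 270 CPM in Cgas KO and 182 against 251 CPM in WT, and Uqcr11 was lower too, while 7 of 38 complex I subunits were lower. The 2 lower genes of complex IV were Cox6a1 and Cox6b2. Cox6b2 had 1.81 against 3.67 CPM in Cgas KO and 2.85 against 4.31 CPM in WT from 38 UMIs in Cgas KO and 57 in WT in S1pr1+ barcodes. Assembly factors took 7 of the 25, including Ndufaf2 (0.662 in Cgas KO and 0.713 in WT), Ndufaf4 (0.673 in Cgas KO and 0.733 in WT) and Ndufaf6 (0.733 in Cgas KO and 0.723 in WT) of complex I. Cox7a2l was the 1 higher gene, at 1.25 times in both libraries and past the fold under each of the 8 other settings. Barcodes with under 10% ribosomal protein UMIs made up 0.722% of S1pr1+ barcodes in Cgas KO and 3.04% in WT. Without them the set stood at 0.907 in Cgas KO and 0.895 in WT, and 25 genes were lower as before, against 17.9% of all genes.

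Rag1+ barcodes had nuclear genes on both sides. The nuclear set stood at 0.985 times the Itm2a+ S1pr1- level in Cgas KO and 0.939 times in WT, and 4 genes were higher and 10 lower of 98, against 23.6% and 13.9% of all genes. The median of all genes was 1.07 in both libraries; with TMM factors it was 0.937 in Cgas KO and 0.930 in WT, and the counts became 1 higher and 29 lower, against 13.6% and 25.1% of all genes. With overlapping states they were 10 higher and 6 lower, against 22.2% and 15% of all genes. The set then stood at 1.11 times in Cgas KO and 1.03 times in WT, so no direction is given for the set. Lower by the fold were Ndufaf4 (0.610 in Cgas KO and 0.558 in WT), Ndufaf6 (0.652 in Cgas KO and 0.524 in WT), Atp5g1 (154 against 230 CPM in Cgas KO and 142 against 230 CPM in WT), Sdhaf4, Sdhaf1, Uqcc2, Uqcrq, Atp5e, Cox5a and Ndufa4. Higher were Ndufaf3 (1.52 in Cgas KO and 1.30 in WT), Ndufs4 (1.29 in Cgas KO and 1.37 in WT), Ndufa8 (1.43 in Cgas KO and 1.24 in WT) and Cox6b2, which rests on 19 UMIs in Cgas KO and 14 in WT. Rag1+ barcodes had the lowest depth of the 6 states, with medians of 3071 UMIs in Cgas KO and 3099 in WT.

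Foxp3+ barcodes had 3 nuclear genes higher and 13 lower of 98, against 11.7% and 20.6% of all genes, and the set stood at 0.956 times in Cgas KO and 0.961 times in WT. Ndufa6, an accessory complex I subunit, had 377 against 273 CPM in Cgas KO and 381 against 267 CPM in WT. Cox7a2l stood at 1.40 times in Cgas KO and 1.41 times in WT, and Sdhaf1 at 1.52 times in Cgas KO and 1.27 times in WT, opposite to its place in cycling barcodes. Lower genes included Ndufaf4, at 33.5 against 57.6 CPM in Cgas KO and 31.4 against 51.8 CPM in WT, and the Atp5b, Atp5g1, Atp5g3, Cox5a and Uqcrq subunits. Ndufb4b had only 1 Cgas KO and 4 WT UMIs there, and reads of this gene and its near-identical copy Ndufb4 may not be separable.

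Cd8 lineage barcodes had 8 nuclear genes higher and 2 lower of 98, against 9.51% and 10.6% of all genes. Among the higher were Cox8a (617 against 499 CPM in Cgas KO and 611 against 492 CPM in WT), Cox6a1, Ndufb7, Ndufa1 and Ndufaf1, and the lower were the complex II factors Sdhaf1 and Sdhaf4. With overlapping states 0 genes were higher, against 8.29% of all genes, and with TMM factors 1 was, against 7.6%. The nuclear set in Cd8 lineage barcodes stood at 1.083 times in Cgas KO and 1.0998 times in WT. Barcodes with no state had 0 nuclear genes higher and 10 lower of 98, against 9.5% and 6.67% of all genes.

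The mitochondrial genes did not move as 1 block, although they are made as long polycistronic transcripts. In Rag1+ barcodes mt-Co1, the catalytic subunit of complex IV, had 2709 against 2020 CPM in Cgas KO and 2566 against 1970 CPM in WT. It had 2437 CPM in Cgas KO and 2339 CPM in WT in S1pr1+ barcodes, 1837 CPM in Cgas KO and 1776 CPM in WT in Cd8 lineage barcodes and 1987 CPM in Cgas KO and 1890 CPM in WT in cycling barcodes. By the total of all UMIs, therefore, its level was lowest in Cd8 lineage and highest in Rag1+ barcodes in both libraries. With TMM factors S1pr1+ barcodes instead lay above Rag1+ barcodes in both libraries. The orders of mt-Nd1 and mt-Cytb below are also by the total of all UMIs. mt-Nd1, a membrane subunit of complex I, took another course, with 424 against 524 CPM in Rag1+ barcodes of Cgas KO and 434 against 535 CPM in WT. It had its highest levels in Cd8 lineage barcodes, at 585 CPM in Cgas KO and 595 CPM in WT. mt-Cytb, the mitochondrial subunit of complex III, was highest in Itm2a+ S1pr1- barcodes, at 1481 CPM in Cgas KO and 1470 CPM in WT, and lowest in Rag1+ barcodes, at 1301 CPM in Cgas KO and 1318 CPM in WT. mt-Atp6, the proton channel subunit of complex V, had 617 against 460 CPM in Rag1+ barcodes of Cgas KO and 549 against 423 CPM in WT. By the fold rule mt-Co1 and mt-Atp6 were higher and mt-Nd1 lower in Rag1+ barcodes, and no mitochondrial gene passed it in the other 4 states. With TMM factors 0 were higher and 4 lower in Rag1+ barcodes. With TMM factors or with the total without mitochondrial and ribosomal protein genes, 1 passed the fold upwards in S1pr1+ and 1 in Foxp3+ barcodes, and 2 passed it in Foxp3+ barcodes after thinning. The 3 mitochondrial subunits of complex IV together stood at 1.23 times in Cgas KO and 1.197 times in WT the Itm2a+ S1pr1- level in Rag1+ barcodes and at 1.13 times in Cgas KO and 1.11 times in WT in S1pr1+ barcodes. The 7 of complex I stood at 0.929 times in Cgas KO and 0.957 times in WT in Rag1+ barcodes and at 1.02 times in Cgas KO and 1.002 times in WT in S1pr1+ barcodes. mt-Atp8 with mt-Atp6, and mt-Nd4l with mt-Nd4, lie on overlapping stretches of 1 transcript, so their reads cannot be told apart with certainty. The sum of mt-Atp8 and mt-Atp6 stood at 1.14 times in Cgas KO and 1.07 times in WT in Rag1+ barcodes, short of the fold.

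**Figure D3:**
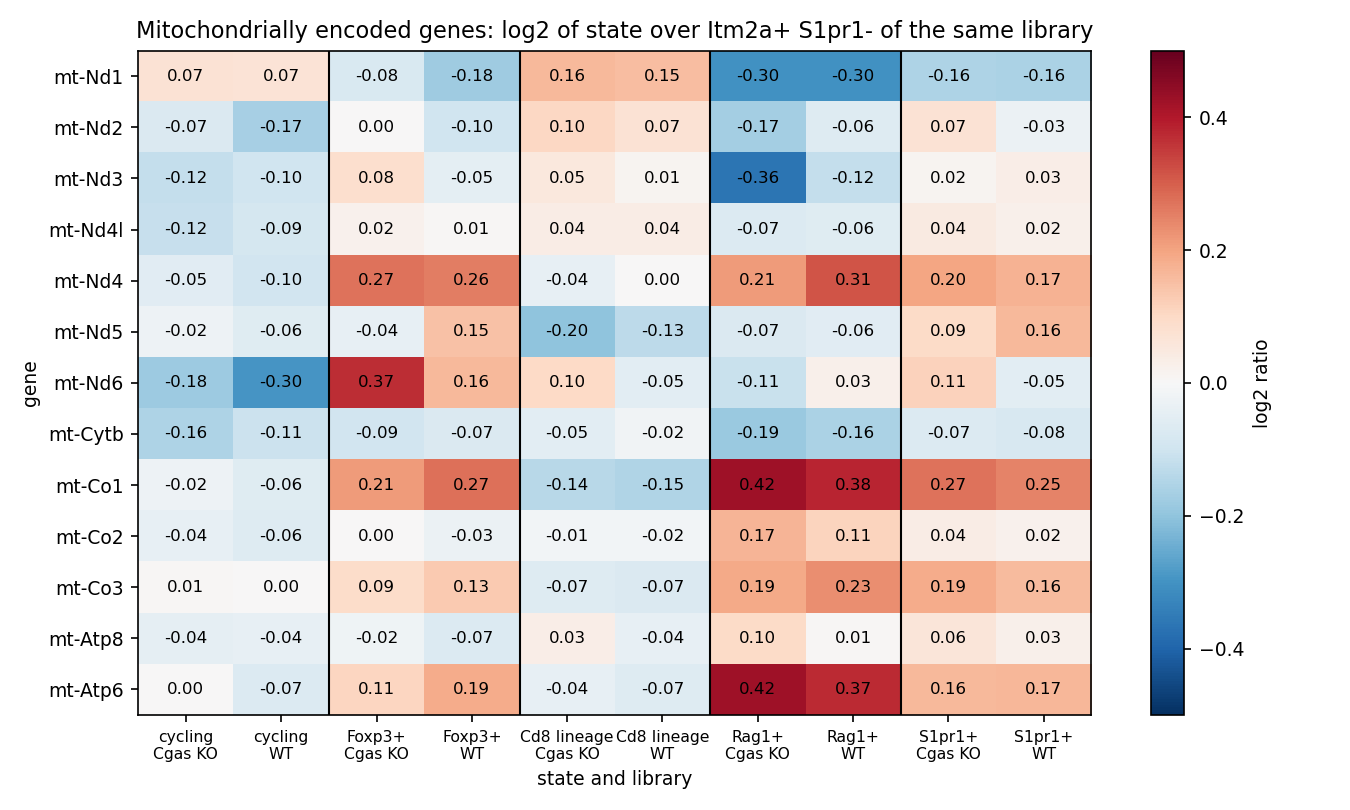
Log2 ratio of each of the 13 mitochondrial genes (rows) in 5 states to its level in Itm2a+ S1pr1- barcodes of the same library (columns, Cgas KO and WT side by side), from blue (lower) to red (higher). mt-Co1 and mt-Atp6 are red in Rag1+ barcodes of both libraries, where mt-Nd1 is blue.

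Between the genotypes, the nuclear set differed by a few percent, the mitochondrial set by less and a handful of single genes by more. Over all kept barcodes the nuclear set took 2.04% of UMIs in Cgas KO and 1.98% in WT, a ratio of 1.03 (1.027 to 1.032), and the mitochondrial set 1.01% in Cgas KO and 1.02% in WT, a ratio of 0.991 (0.988 to 0.994). The nuclear ratio was above 1 in every state: 1.07 in Rag1+, 1.045 in cycling, 1.04 in S1pr1+, 1.02 in Itm2a+ S1pr1-, 1.01 (0.999 to 1.027) in Foxp3+ and 1.003 (0.995 to 1.010) in Cd8 lineage barcodes, where the last 2 intervals include 1. The mitochondrial ratio turned to 1.01 with every barcode thinned to 2000 UMIs, so no direction is given for it. Complex II alone among the nuclear complexes had a lower sum in Cgas KO, at 0.963 (0.948 to 0.978). Barcodes with under 10% ribosomal protein UMIs were 1.43% of Cgas KO and 2.99% of WT barcodes and had a median nuclear share of 0.546% in Cgas KO and 0.400% in WT; without them the nuclear ratio was 1.02.

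Of the 101 nuclear genes measured over all kept barcodes, 5 passed a fold of 1.2 upwards in Cgas KO and 1 downwards, against 6.07% higher and 5.83% lower of all 13266 genes. Both counts are near that background or below it. At a fold of 1.1, 15 were higher and 3 lower, against 15.1% and 13.8% of all genes. The ratio was above 1 for 71 of the 101, with a median of 1.02, against 1.001 over all genes. No mitochondrial gene passed the fold. Single genes are nonetheless measured finely, because most of them rest on many UMIs.

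Atp5k, subunit e of ATP synthase, which lies in its membrane part, had 122 CPM in Cgas KO and 94.4 CPM in WT, a ratio of 1.29 (1.25 to 1.33). It was higher in Cgas KO in 6 of 6 states, with ratios between 1.19 and 1.37. The states are parts of the same 2 libraries, so for this gene and those below they are not independent repeats. Ndufb1, an accessory subunit of the membrane arm of complex I, had 172 CPM in Cgas KO and 141 CPM in WT (1.22, 1.19 to 1.25) and ratios of 1.13 to 1.29 over the states. On GRCm38.p6 it lies at chr12:101968096-101975738. Atp5mpl, a small proteolipid of ATP synthase on the same chromosome (chr12:111961374-111967009), was picked after its values were seen. It had 281 CPM in Cgas KO and 241 CPM in WT (1.16, 1.14 to 1.19). Larger ratios were found on other chromosomes, with Atp5k on chromosome 5 and Ndufa3 on chromosome 7. A part of the chromosome in these ratios was not tested. Ndufa3, another accessory membrane-arm subunit, had 264 CPM in Cgas KO and 219 CPM in WT (1.21, 1.18 to 1.23), with 1.14 to 1.34 over the states. Cox7a1, the heart and muscle isoform of subunit 7a, was near the limit of detection, with 112 UMIs in Cgas KO and 73 in WT (1.52, 1.12 to 2.07). Ndufb4b had 319 UMIs in Cgas KO and 233 in WT (1.36, 1.14 to 1.62), with the doubt about its copy given above.

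Sdhc, at chr1:171129157-171150640 (GRCm38.p6), had 55.6 CPM in Cgas KO and 66.7 CPM in WT, a ratio of 0.833 (0.799 to 0.868). It was lower in Cgas KO in 6 of 6 states, with ratios between 0.688 and 0.873. It thus sits just past the edge of the fold. With barcodes of several beta chains left out, or with mitochondrial and ribosomal protein genes left out of the total, it no longer passed the fold and no nuclear gene was lower. The other complex II subunits had ratios of 0.970 (Sdha), 1.001 (Sdhb) and 0.992 (Sdhd). Cox7a2l had 321 CPM in Cgas KO and 360 CPM in WT (0.891, 0.876 to 0.907), and Ndufa4 293 CPM in Cgas KO and 319 CPM in WT (0.919, 0.903 to 0.936), both short of the fold. The ratio of Cox7a2l was narrow over the states, between 0.845 and 0.904. Cox6b2 had 288 UMIs in Cgas KO and 326 in WT (0.876, 0.745 to 1.03), an interval that includes 1.

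**Figure D4:**
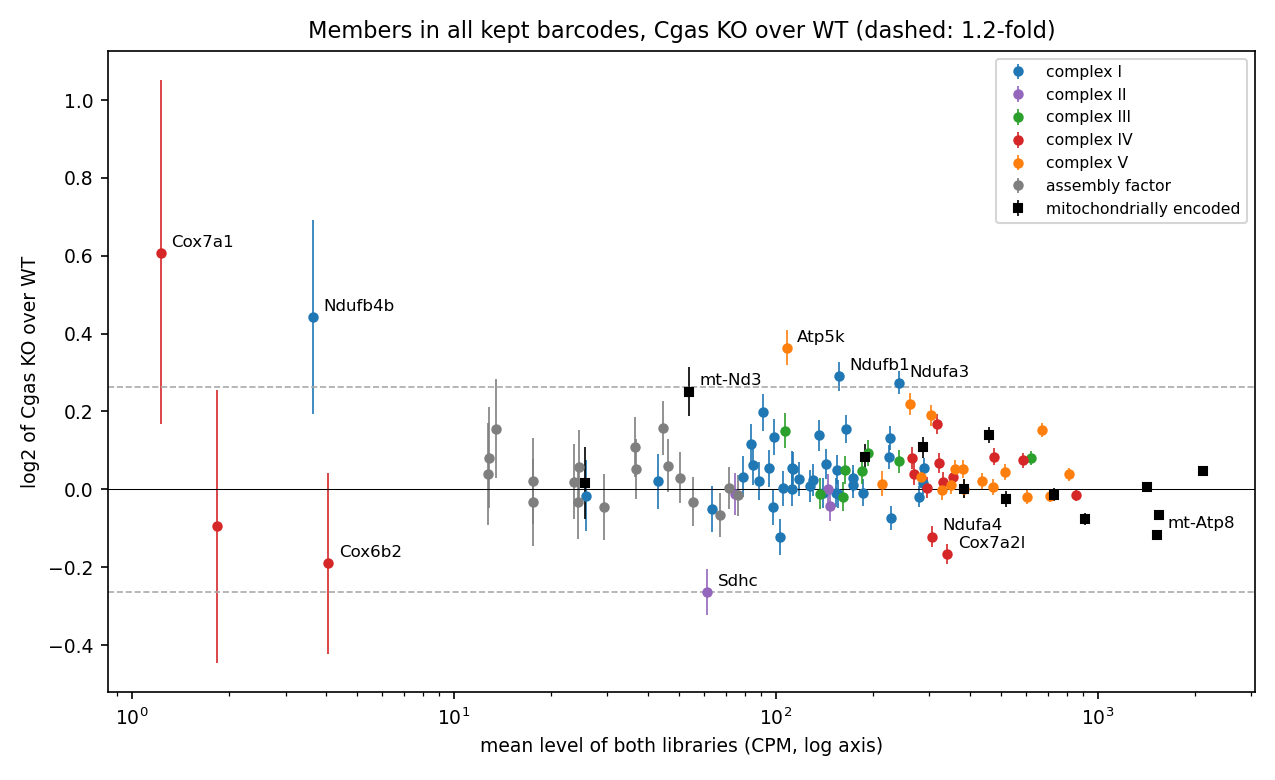
Ratio of Cgas KO to WT (log2 scale) for each nuclear and mitochondrial gene over all kept barcodes against its mean level in CPM (log axis), with exact 95% counting intervals and dashed lines at a fold of 1.2. Atp5k, Ndufb1 and Ndufa3 lie above the upper line and Sdhc at the lower one, and most genes lie within the lines.

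The mitochondrial genes lay on both sides of 1. mt-Nd3 had 58.3 CPM in Cgas KO and 49.0 CPM in WT (1.19, 1.14 to 1.24). mt-Atp8 had 1467 CPM in Cgas KO and 1590 CPM in WT (0.922, 0.915 to 0.930), while mt-Atp6, which overlaps it, had 482 CPM in Cgas KO and 438 CPM in WT (1.102, 1.09 to 1.12), and the pair summed to a ratio of 0.961. mt-Co2 had 1517 CPM in Cgas KO and 1589 CPM in WT (0.955), and mt-Co3 888 CPM in Cgas KO and 935 CPM in WT (0.949). mt-Co1 had 2151 CPM in Cgas KO and 2081 CPM in WT (1.03). The other ratios were 0.983 (mt-Nd1), 1.001 (mt-Nd2), 0.990 (mt-Nd4l), 1.005 (mt-Cytb), 1.01 (mt-Nd6), 1.08 (mt-Nd4) and 1.06 (mt-Nd5).

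The state in which the most genes differed between genotypes was Rag1+. Of 87 nuclear genes measured there, 20 were higher in Cgas KO and 1 lower, against 12.2% and 11.7% of all 5810 genes, and the median ratio was 1.08, against 0.9997 over all genes. The complex III factors Uqcc1, with 38.4 CPM in Cgas KO and 26.4 CPM in WT (1.45, 0.987 to 2.15), and Uqcc5 (1.38, 1.03 to 1.86) were among them. So were the complex I subunits Ndufb2, with 96.8 CPM in Cgas KO and 68.0 CPM in WT (1.42, 1.12 to 1.81), and Ndufa7, with 254 CPM in Cgas KO and 190 CPM in WT (1.34, 1.16 to 1.54). Sdhc was the lower gene, with 47.7 CPM in Cgas KO and 65.6 CPM in WT. These rest on 381 Cgas KO and 459 WT barcodes of 1 library each, and under the other settings at the same fold 15 to 24 genes were higher. The share of all genes was not computed under other settings at this fold, here or for the counts that follow. Whether an excess over all genes remains under them therefore cannot be told. Barcodes under 10% ribosomal protein UMIs were 8.40% of Rag1+ barcodes in Cgas KO and 10.5% in WT, and without them 16 genes were higher. The Foxp3+ markers, 5 of 5 detected in both libraries, summed to 608 CPM in Rag1+ barcodes of Cgas KO and 454 CPM in WT, and their part in the result was not tested. Barcodes with several beta chains made up 19.4% of Rag1+ barcodes in Cgas KO and 15.5% in WT; without them 23 genes were higher. At a fold of 1.1, 37 genes were higher and 5 lower, against 25.4% and 24.6% of all genes.

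In the other states the counts were small. Cycling barcodes had 6 nuclear genes higher and 1 lower of 97, against 6.27% and 6.89% of all genes. Itm2a+ S1pr1- barcodes had 3 higher and 1 lower of 100, against 5.66% and 5.1%, and S1pr1+ barcodes 3 higher and 0 lower of 97, against 5.68% and 5.93%. Foxp3+ barcodes had 5 higher and 5 lower of 90, against 10.1% and 10.8%. Among these were Ndufc1 (1.34, 1.08 to 1.68) and Ndufv3 (1.30, 1.12 to 1.51), both higher, and Sdhc (0.688, 0.519 to 0.906) and Uqcc2 (0.707, 0.539 to 0.921), both lower. Cd8 lineage barcodes had 4 higher and 0 lower of 96, against 7.71% and 8.09%, with the complex III factor Uqcc6 at 25.1 CPM in Cgas KO and 17.998 CPM in WT. Barcodes with no state had 4 nuclear genes higher and 1 lower of 93, against 8.04% and 9.14%, and 2 of 13 mitochondrial genes higher. Among the 6 states, mt-Nd3 was the 1 mitochondrial gene past the fold in Foxp3+ barcodes (1.31) and in Cd8 lineage barcodes (1.22).

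**Figure D5:**
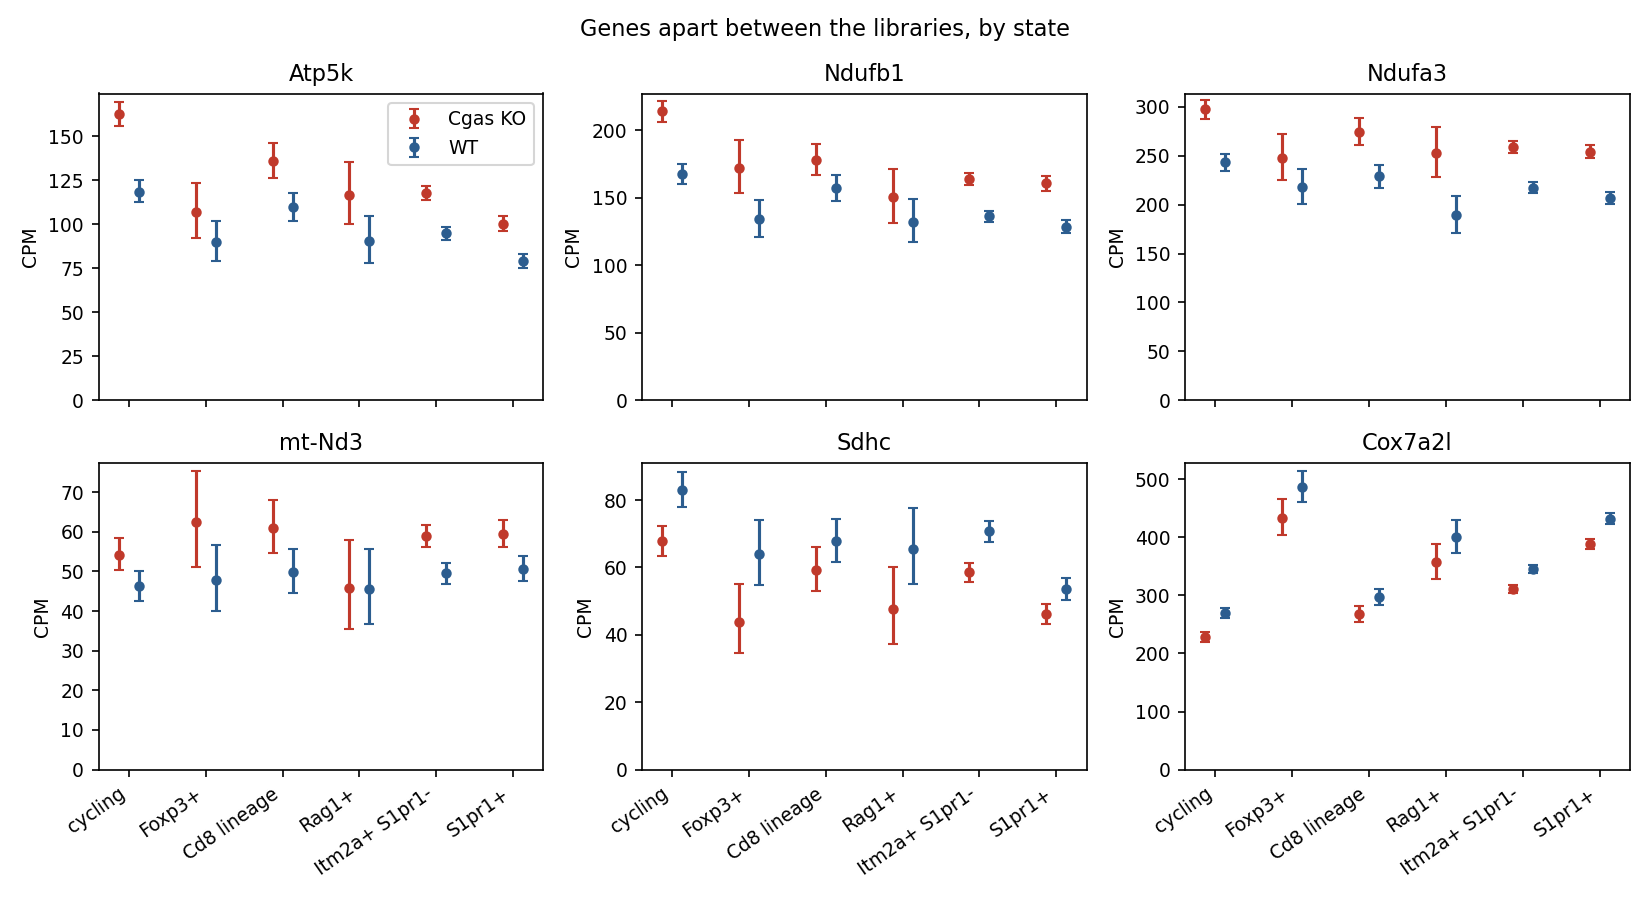
Level in CPM of Atp5k, Ndufb1, Ndufa3, mt-Nd3, Sdhc and Cox7a2l in the 6 states, Cgas KO and WT side by side, with exact 95% counting intervals. The first 3 are higher in Cgas KO in every state, and Sdhc and Cox7a2l lower in every state.

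Other genes of mitochondrial energy supply, from lists outside the symbol rule, were read by the same folds, beside 19.3% of all genes higher and 24.9% lower in cycling barcodes and 9.47% higher and 17.8% lower in S1pr1+ barcodes. Of 78 genes of the mitochondrial ribosome, which translates the 13 mitochondrial messages, 25 were higher and 1 lower in cycling barcodes, and 0 higher and 16 lower in S1pr1+ barcodes. Their median ratios were 1.14 in Cgas KO and 1.09 in WT in cycling barcodes and 0.878 in Cgas KO and 0.867 in WT in S1pr1+ barcodes. Of 14 genes for electron carriers and cofactors, 5 were higher and 1 lower in cycling barcodes and 3 lower in S1pr1+ barcodes. For both lists the number lower in S1pr1+ barcodes is near the share of all genes. Cycs, cytochrome c, had 153 against 209 CPM in S1pr1+ barcodes in Cgas KO and 154 against 201 CPM in WT. Of 12 genes of the TCA cycle, which supplies the NADH and succinate, 3 were higher in cycling barcodes, among them fumarase, Fh1, with 68.2 against 35.5 CPM in Cgas KO and 65.0 against 33.5 CPM in WT, and 4 were lower in S1pr1+ barcodes, among them malate dehydrogenase, Mdh2, with 282 against 364 CPM in Cgas KO and 284 against 373 CPM in WT.

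Of 8 carriers and channels of the mitochondrial membranes, 3 were higher in cycling barcodes and 1 lower in S1pr1+ barcodes. That 1 was Vdac1, the voltage-dependent anion channel, with 98.1 against 131 CPM in Cgas KO and 94.2 against 129 CPM in WT. Of 12 genes for upkeep and transcription of mitochondrial DNA, 3 were higher and 2 lower in cycling barcodes; Tfam, which packages that DNA, had 71.5 against 42.2 CPM in Cgas KO and 63.2 against 39.8 CPM in WT, and its polymerase Polg had 28.1 against 43.3 CPM in Cgas KO and 36.5 against 52.0 CPM in WT. Both counts in cycling barcodes are near the shares of all genes given above. In S1pr1+ barcodes 1 was higher and 1 lower. Of 9 measured regulators, Nrf1 had 93.8 against 63.2 CPM in cycling barcodes of Cgas KO and 84.7 against 62.4 CPM in WT, and Ppargc1a was near 0, at 0.291 CPM in Cgas KO and 0.253 CPM in WT over all kept barcodes. In all, 2 regulators were higher and 1 lower in cycling barcodes and 1 lower in S1pr1+ barcodes. Glycolysis genes lay on both sides in cycling barcodes, with 4 higher and 5 lower of 14, against 19.3% and 24.9% of all genes, and 8 were lower in S1pr1+ barcodes, against 17.8%. Tpi1 had 137 against 57.3 CPM in cycling barcodes of Cgas KO and 121 against 48.6 CPM in WT, while Aldoa had 176 against 338 CPM in Cgas KO and 187 against 333 CPM in WT.

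Between genotypes over all kept barcodes, these lists held no gene past the fold, with the exception of Hk2 of glycolysis, at 1.96 CPM in Cgas KO and 1.11 CPM in WT (1.77, 1.34 to 2.34). Atpif1, which encodes the inhibitor of ATP synthase and carries another symbol than the rule names, had 160 CPM in Cgas KO and 145 CPM in WT (1.099, 1.07 to 1.13). It was lowest in S1pr1+ barcodes, at 108 CPM in Cgas KO and 92.2 CPM in WT, and highest in cycling barcodes, at 209 CPM in Cgas KO and 193 CPM in WT. Cyc1, cytochrome c1 of complex III, had 101 CPM in Cgas KO and 102 CPM in WT over all kept barcodes.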

How the data were processed

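RNA was measured in 2 expression libraries, 1 of Cgas KO and 1 of WT thymocytes, grouped by their titles; TCR libraries of the same genotypes served only to count beta chains. The authors deposited unfiltered UMI counts per gene and barcode, and per the file headers the software was Cell Ranger 8.0.1. The build is mm10, with Seurat 5.1.0 and Cell Ranger 7.0 as tools, per the submitters' processing notes. The headers and the notes thus differ in the version of Cell Ranger. Per the labels' protocols the expression kit captures 3' ends. Counts of such a kit are not scaled by length, so levels are compared within a gene only, and reads from near-identical copies or overlapping genes may be split.

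From these counts, barcodes were kept and put in 1 state each, in the order cycling (at least 3 UMIs over 12 genes), Rag1+, Foxp3+, Cd8 lineage (at least 2 Cd8a and Cd8b1 UMIs, no Cd4 or Zbtb7b), S1pr1+ and Itm2a+ S1pr1-. UMIs were summed per library and state and divided by all UMIs (CPM). Levels have exact Poisson, shares exact Clopper-Pearson and ratios exact conditional binomial intervals (95%). Ratios of genes needed 100 UMIs, and a fold of 1.2 took the place of a test, which 1 library per genotype does not allow. Named genes were all mitochondrial genes, complex II subunits, isoform groups, genes past the fold or among the 6 highest and lowest between genotypes, and the 5 highest and lowest per state. One of these is not reported here. The members and lists were chosen with earlier results of these data known. The ratio step was tested on simulated data. Alternatives were thinning to 2000 UMIs, overlapping states, TMM factors (edgeR 4.0.16, R 4.3.3), a total without mitochondrial and ribosomal protein genes, at most 5% mitochondrial UMIs, at least 1000 UMIs, at least 20 UMIs per gene, a fold of 1.1, and leaving out barcodes with several beta chains. Leaving out barcodes under 10% ribosomal protein UMIs was added after seeing the data. Computations used scipy 1.17.1, pandas 2.3.3, numpy 2.4.6 and matplotlib 3.10.9 under Python 3.11.15.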

Additional observations from a re-analysis of the deposited data

Results flagged for a closer look

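Uqcc2, a complex III assembly factor, went opposite ways between the genotypes in 2 states. In Rag1+ barcodes it had 90 UMIs in Cgas KO and 95 in WT, a ratio of Cgas KO to WT of 1.28 (0.951 to 1.73), and in Foxp3+ barcodes 83 UMIs in Cgas KO and 186 in WT, a ratio of 0.707 (0.539 to 0.921). The difference between the states was not tested, since each genotype has 1 library. Over all kept barcodes the ratio was 1.002 (0.965 to 1.04).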

How the results depend on the processing

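No paired analysis was possible because each genotype has 1 library and the labels carry no replicate numbers. Ratios of the nuclear set between genotypes kept their direction in 54 of 55 cases over states and settings, and ratios of the nuclear set between states in 77 of 80; for the mitochondrial set the numbers were 46 of 55 and 78 of 80. The ratio of Cgas KO to WT of the nuclear set over all kept barcodes was 1.03 after thinning to 2000 UMIs, 1.03 with at least 1000 UMIs and 1.02 without barcodes under 10% ribosomal protein UMIs. That of the mitochondrial set turned to 1.01 after thinning, and was 0.996 with at least 1000 UMIs and 0.987 without barcodes of several beta chains. After thinning it also turned in cycling (1.03), Itm2a+ S1pr1- (1.003) and Foxp3+ barcodes (1.04), and passed to the other side of 1 in S1pr1+ (1.02, against 0.998) and Rag1+ barcodes (1.02, against 0.997).

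The nuclear set in cycling over Itm2a+ S1pr1- barcodes was 1.14 in Cgas KO and 1.11 in WT with overlapping states, 1.23 in Cgas KO and 1.19 in WT with TMM factors, 1.153 in Cgas KO and 1.13 in WT with mitochondrial and ribosomal protein genes left out of the total, and 1.18 in Cgas KO after thinning. In S1pr1+ barcodes it was 0.895 in Cgas KO and 0.883 in WT with overlapping states, 0.884 in Cgas KO and 0.867 in WT after thinning, 0.899 in Cgas KO and 0.882 in WT without several beta chains, 0.961 in Cgas KO and 0.939 in WT with TMM factors, 0.930 in Cgas KO and 0.915 in WT with the reduced total, and 0.895 in WT without barcodes under 10% ribosomal protein UMIs. In Rag1+ barcodes it turned to 1.11 in Cgas KO and 1.03 in WT with overlapping states, and to 1.02 in Cgas KO after thinning. The mitochondrial set in cycling barcodes was 0.978 in Cgas KO and 0.969 in WT with overlapping states, 0.996 in Cgas KO and 0.982 in WT with TMM factors, 0.933 in Cgas KO and 0.934 in WT with the reduced total, and 0.942 in WT after thinning. In S1pr1+ barcodes it was 1.05 in Cgas KO and 1.04 in WT after thinning, 1.13 in Cgas KO and 1.11 in WT with TMM factors, and 1.09 in Cgas KO and 1.08 in WT with the reduced total. In Rag1+ barcodes it turned to 0.958 in Cgas KO and 0.936 in WT with TMM factors. The cause of these shifts was not tested.

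At a fold of 1.1, 15 nuclear genes were higher and 3 lower in Cgas KO over all kept barcodes, against 15.1% and 13.8% of all genes; 0 were lower without several beta chains or with the reduced total. At a fold of 1.1 in Rag1+ barcodes, 37 were higher, against 25.4% of all genes. Genes under 100 UMIs per comparison have no ratio at this depth.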

Other observations

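Within single barcodes the nuclear share had a median of 1.93% in Cgas KO and 1.89% in WT, with 5th and 95th percentiles of 1.34% and 2.74% in Cgas KO and 1.27% and 2.68% in WT. The mitochondrial share had a median of 1.001% in Cgas KO and 0.998% in WT, with percentiles of 0.408% and 1.71% in Cgas KO and 0.337% and 1.71% in WT. Across barcodes the shares ran opposite to each other only weakly, with Pearson r of -0.26 in Cgas KO (n = 14381 barcodes) and -0.24 in WT (n = 12929 barcodes). The barcodes share a library and both shares have the same denominator.

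The 205 Cgas KO and 387 WT barcodes under 10% ribosomal protein UMIs had a median mitochondrial share of 1.25% in Cgas KO and 1.26% in WT, against 0.9996% in Cgas KO and 0.993% in WT in the other barcodes of the same libraries. They made up 3.78% of barcodes with no state in Cgas KO and 10.1% in WT.

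Among other lists in Foxp3+ barcodes, 18 of 78 genes of the mitochondrial ribosome and 7 of 14 glycolysis genes were lower than in Itm2a+ S1pr1- barcodes in both libraries, against 20.6% of all genes, a share that the mitochondrial ribosome is near. In Rag1+ barcodes 7 of 14 glycolysis genes were lower and 0 higher, against 13.9% and 23.6% of all genes; Pkm had 520 against 850 CPM in Cgas KO and 466 against 831 CPM in WT. Between genotypes in Rag1+ barcodes, 12 of 66 measured genes of the mitochondrial ribosome were higher in Cgas KO and 2 lower, against 12.2% and 11.7% of all genes.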
